A study of Mus musculus with 4 samples.

Results

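Transcripts of 10 genes of bone morphogenetic protein (BMP) signalling were compared between node regions of mouse embryos with 2 copies and with 1 copy of a disrupted Noto gene. They were taken by name: the ligands Bmp2, Bmp4 and Bmp7, the signal transducers Smad1 and Smad5, and the response genes Id1, Id2, Id3, Smad6 and Smad7. They are 10 of 18607 measured genes. Noto encodes a homeobox transcription factor of the node and notochord, and in the NotoGFP allele a GFP reporter is present at that gene. The Noto GFP/GFP group was homozygous and the Noto GFP/+ group heterozygous for this allele, both on an Sv129/CD-1 hybrid background at the early headfold stage (about E7.75). The heterozygotes carry the GFP allele too, and no embryos without it are among the samples. Node-bearing distal pieces of 120 to 150 embryos made up a pool, and the label fields disagree on the size of the piece. One RNA pool of each genotype was hybridised on a 2-colour Agilent array, and again on a second array with the dyes exchanged. The 4 samples are therefore 1 pool per genotype measured on 2 arrays.

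The embryo makes BMP ligands in several places at this stage, among them the extraembryonic ectoderm and mesoderm and the lateral edges of the embryo, while the node and notochord secrete antagonists of BMP. A bound ligand activates a complex of type I and type II receptors, which phosphorylates Smad1 and Smad5; these enter the nucleus with Smad4 and switch on target genes. Among the targets are the Id genes, whose helix-loop-helix proteins block DNA binding by their partners, and the inhibitory Smads, Smad6 and Smad7, which dampen the same signal. The level of these target transcripts is often read as a measure of how much BMP signal cells receive. Transcript levels of the ligands and of Smad1 and Smad5 say nothing of their secretion or phosphorylation.

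The 10 genes were read by 16 probes, each 60 bases long, and 4 of these probes are shown, for a ligand, 2 Id genes and an inhibitory Smad. The value of Id2 came from its brighter probe, which is not printed. The Id3 probe (mm8 chr4:135416236-135416410, plus strand) and the dimmer of the Id2 probes (mm8 chr12:25684398-25684745, minus strand) span more genome than their length, so their sequence is split across a gap in the genome. The Smad6 probe (mm8 chr9:63751577-63751636, minus strand) and the Bmp4 probe (mm8 chr14:45306004-45306063, minus strand) align without one. The files do not say which exon or untranslated region a probe covers.
Id2 probe: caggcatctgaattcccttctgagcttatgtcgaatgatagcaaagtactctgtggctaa
Id3 probe: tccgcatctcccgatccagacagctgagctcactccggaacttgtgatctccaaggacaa
Smad6 probe: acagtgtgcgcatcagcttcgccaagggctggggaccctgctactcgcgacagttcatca
Bmp4 probe: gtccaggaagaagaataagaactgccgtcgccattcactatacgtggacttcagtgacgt

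Promoters of Id2 and Id3 are shown because Id genes are the best known direct targets of BMP Smads. They are the 250 bases before the start site in RefSeq (GRCm38.p6), at chr12:25096093-25096342 on the minus strand for Id2 and chr4:136143572-136143821 on the plus strand for Id3. Capitals mark GGCGCC, a sequence that Smad1 and Smad5 are known to bind, and GTCTG or its reverse complement CAGAC, which Smad proteins bind more generally. Both strands were searched, from 250 bases before to 50 bases after each start, and the motifs share no bases with each other in these promoters.
Id2 promoter: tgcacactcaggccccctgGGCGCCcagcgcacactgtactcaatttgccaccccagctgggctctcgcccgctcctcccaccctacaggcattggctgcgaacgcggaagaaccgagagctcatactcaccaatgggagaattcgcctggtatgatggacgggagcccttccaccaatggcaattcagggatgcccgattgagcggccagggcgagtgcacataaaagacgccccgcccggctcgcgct
Id3 promoter: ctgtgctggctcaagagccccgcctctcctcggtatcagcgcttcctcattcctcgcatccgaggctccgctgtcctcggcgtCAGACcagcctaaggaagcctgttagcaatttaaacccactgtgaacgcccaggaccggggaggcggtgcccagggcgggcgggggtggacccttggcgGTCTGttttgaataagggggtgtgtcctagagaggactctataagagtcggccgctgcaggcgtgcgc
The Id2 promoter holds 1 GGCGCC, at base -231 from the start, and the Id3 promoter holds CAGAC at -167 and GTCTG at -68. Across all 32851 promoters of this length in the table, 11.9% hold GGCGCC and 49.6% hold GTCTG or CAGAC; counted by gene over any of its promoters, 13.4% and 53.2% of 27025 genes do. Of the 6 genes of the 10 that have a promoter there, Smad5 and Id2 hold the first motif and Smad5 and Id3 the second. A match is a description of letters, not a binding site.

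None of the 10 genes differed between genotypes by the rule used here: 0 of 10 were at least 1.5-fold (0.58 on the log2 scale) higher or lower in the same direction on each array, where 2.41% of all measured genes were (448 of 18607). Of all measured genes 0.0591% were higher (11) and 2.35% lower (437). The ratios are the log2 of Noto GFP/GFP over Noto GFP/+, so a value below 0 is a lower level in the homozygous pool. Of the 10 genes, 7 had ratios below 0 on both arrays, against 34.0% of all measured genes. Above 0 on both was 1, against 25.7%. When array medians replaced loess as the normalisation (median centring), 0 of the 10 lay below 0 on both, against 19.9% of all measured genes. With that setting all 10 read above 0 on array 1 and below 0 on array 2, where the dyes were exchanged. Counted by probe, 11 of 16 were below 0 on both arrays, against 30.7% of all measured probes, and 0 of 16 were called, against 2.1%. Among genes brighter than the median, a choice made after seeing the data, 4 of 7 lay below 0 on both arrays, against 25.1% of such genes. The means ran from -0.33 for Smad1 to 0.09 for Smad5, with a median of -0.17 ± 0.15 (SD of the medians on the 2 arrays). The median of all measured genes was -0.02, its quartiles were -0.14 and 0.09, and the median SD over arrays was 0.12. Every value here is technical in its error: with 1 pool per genotype no test of the genotypes can be made, and no p-value is given.

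**Figure D1:**
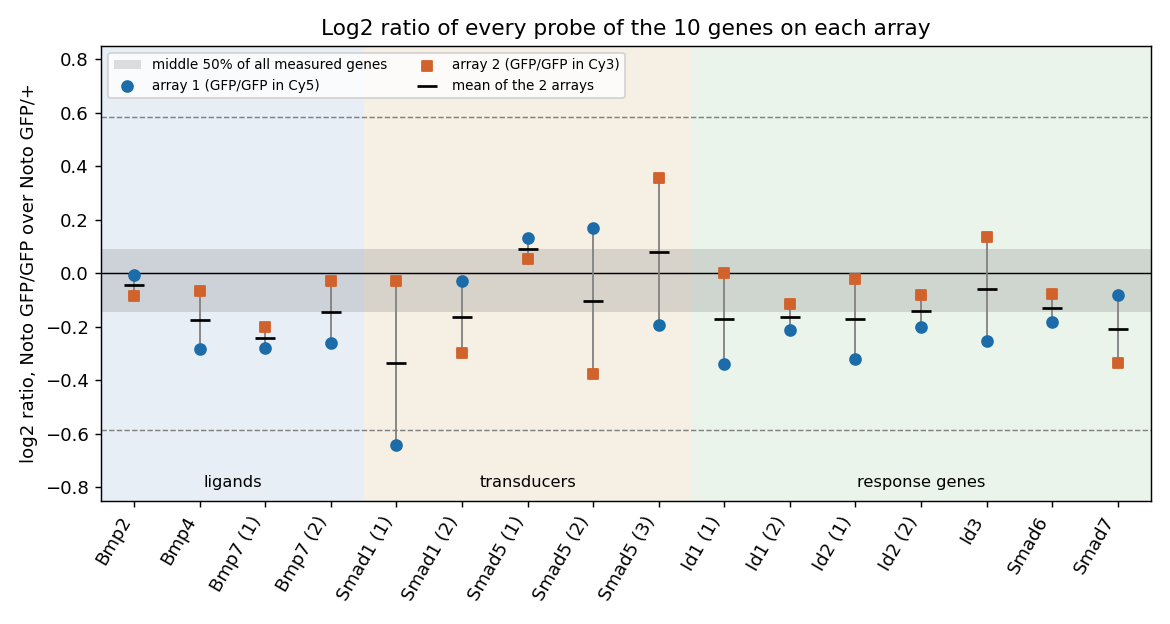
Log2 ratio (vertical axis, Noto GFP/GFP over Noto GFP/+) of each of the 16 probes on array 1 (circles) and array 2 (squares), with the mean as a bar; numbers in brackets tell probes of a gene apart, the grey band is the interquartile range of all measured genes and the dashed lines mark 1.5-fold. Only the Smad1 probe on array 1 (-0.64) passes a dashed line.

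Each array held 43379 gene spots, and the median spot in the homozygous channel read 438 and 399.6 on the 2 arrays over backgrounds of 57 and 64.5, against 305 and 722 over 45.5 and 67 in the heterozygous channel. All 16 probes were well above background in both genotypes on both arrays, and none of the gene spots was saturated (0 on each array). The 8 node and notochord markers T, Foxa2, Shh, Chrd, Foxj1, Foxd4, Nodal and Cfap45 were all measured. Their median ratio was -0.24, with 4 of 8 below 0 on both arrays, 2 above on both and 1 lower by the 1.5-fold rule (Cfap45, -0.73 ± 0.12). Foxj1 read -0.52 and Shh -0.44, against T at 0.33. Their levels summed to 134065 and 140941 in the Noto GFP/GFP samples, against 143225 and 130200 in the Noto GFP/+ samples (linear intensity), of which T and Foxa2 make up the greater part. Noto itself was not analysed here.

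Bmp7 is a BMP made in the node and notochord as well as in other tissues. The brightest Bmp7 probe (mm8 chr2:172512641-172512700, minus strand) read 13.87 and 13.56 in the Noto GFP/GFP samples of arrays 1 and 2, against 14.15 and 13.76 in the Noto GFP/+ samples (log2 normalised intensity). The homozygous sample was the lower on each array, by -0.28 and -0.20, although the 4 levels overlap between genotypes. The mean was -0.24 ± 0.06 (SD over 2 arrays), a change of -15.3%. A second Bmp7 probe, next to it at chr2:172512720-172512779, is printed 10 times on each array and read -0.26 and -0.03, a mean of -0.15 ± 0.16.

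Bmp4 is the ligand that the extraembryonic ectoderm and later the extraembryonic mesoderm supply to the embryo. Its 1 probe read 10.54 and 10.84 in the Noto GFP/GFP samples, against 10.82 and 10.91 in the Noto GFP/+ samples. The homozygous sample was again lower on each array, with levels that overlap between genotypes. The ratios were -0.28 and -0.07, a mean of -0.17 ± 0.15. Bmp2, which acts in extraembryonic and cardiac mesoderm, read 9.31 and 9.62 in the Noto GFP/GFP samples, against 9.31 and 9.70 in the Noto GFP/+ samples (probe at mm8 chr2:133252686-133252745, plus strand). The levels of the genotypes overlap here too, and the mean of -0.04 ± 0.05 was within the technical spread.

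Repeated spots give a second measure of error for the ligands. The Bmp4 probe sits on 10 spots of each array, and all 10 read below 0 on array 1 (-0.59 to -0.14, SD 0.12) and all 10 on array 2 (-0.14 to -0.03, SD 0.04). The lowest of them, at -0.59 on array 1, stood apart, and the median of the 10 spots was -0.26 there. The 10-spot Bmp7 probe read below 0 in 10 of 10 spots of array 1 (-0.32 to -0.20) and in 8 of 9 of array 2 (-0.05 to 0.00), where 1 spot was left out as an outlier. Bmp2 read below 0 in 6 of 9 and 9 of 9 spots, with 1 spot left out on each array. Across all 190 measured probes with 8 or more spots the median SD over spots was 0.05 on array 1 and 0.04 on array 2. The spread of spots within an array was thus smaller than the gap between the arrays for Bmp4 (-0.28 against -0.07) and the 10-spot Bmp7 probe (-0.26 against -0.03).

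**Figure D2:**
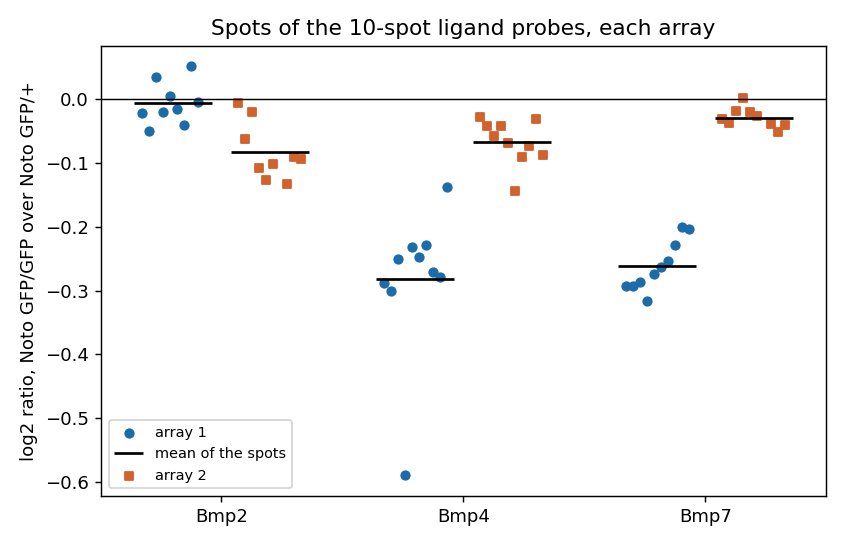
Log2 ratio (vertical axis, Noto GFP/GFP over Noto GFP/+) of each spot of 1 probe for Bmp2, Bmp4 and Bmp7 on array 1 (circles) and array 2 (squares), with the mean of the spots as a bar; there are 10 spots each, or 9 for Bmp2 on both arrays and Bmp7 on array 2. Bmp4 lies below 0 in every spot of both arrays, and Bmp7 nearer to 0 on array 2 than on array 1.

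Smad1 and Smad5 carry the signal from the receptors, and their ratios had opposite signs. The brightest Smad1 probe (mm8 chr8:82235591-82235647, minus strand) read 14.58 and 14.64 in the Noto GFP/GFP samples, against 15.22 and 14.67 in the Noto GFP/+ samples. The homozygous samples lay below both heterozygous ones, but nearly all of the difference came from array 1. The ratios were -0.64 and -0.03, so the mean of -0.33 was smaller than its SD of 0.43, and array 1 alone passes 1.5-fold. A dimmer Smad1 probe at chr8:82235188-82235247 had the larger ratio on the other array, at -0.03 and -0.30 (mean -0.16 ± 0.19).

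Smad5 read 15.47 and 15.41 in the Noto GFP/GFP samples, against 15.34 and 15.35 in the Noto GFP/+ samples (mm8 chr13:56751818-56751877, plus strand). With loess the homozygous samples were the higher on both arrays, without overlap, by 0.13 and 0.05. The mean of 0.09 ± 0.06 is a difference of 6.60%. With the software's log ratios the same probe read 0.22 and -0.05, a mean of 0.09 ± 0.19. The value table gave 0.22 and -0.06, a mean of 0.08 ± 0.19. The 2 other Smad5 probes, at chr13:56747265-56747324 and chr13:56748833-56748892, changed sign between arrays (0.17 and -0.38, and -0.19 and 0.35). A ratio above 0 on both arrays thus rests on the brightest probe with loess. Levels that do not overlap between genotypes, lower in the homozygote as for Smad1 and Id2, were found in 16.6% of all measured genes, and higher as for Smad5 in 10.7%.

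**Figure D3:**
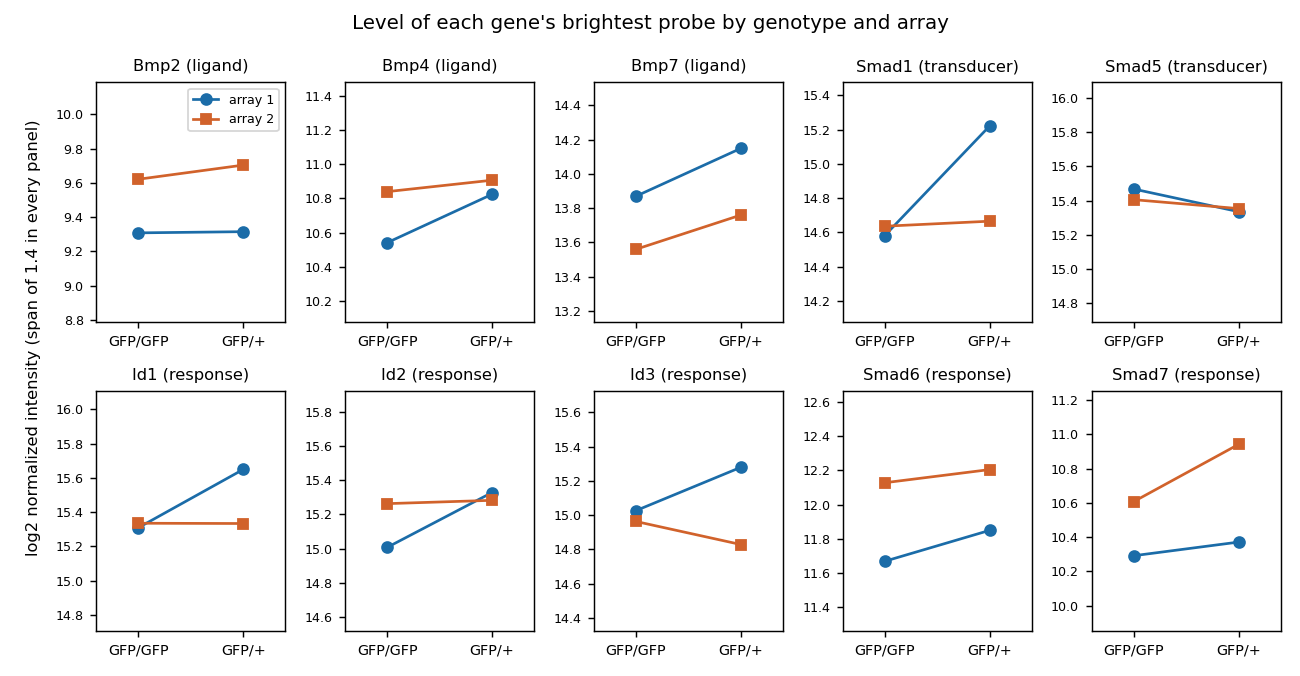
Log2 normalised intensity (vertical axis, a span of 1.4 in every panel) of the brightest probe of each gene in Noto GFP/GFP (left of each panel) and Noto GFP/+ (right), with array 1 as circles and array 2 as squares; lines join the 2 samples of an array. The Id genes and Smad1 slope on array 1 and are flatter or turned on array 2.

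The brightest probes of the 3 Id genes, transcripts much used as a readout of BMP signalling, had means smaller than their SD over arrays. With the software's log ratios the means of Id1 (-0.17 ± 0.13) and Id2 (-0.19 ± 0.09) were larger than the SD, and so they were with the value table (-0.17 ± 0.13 and -0.19 ± 0.10) and, narrowly, with the mean of probes (-0.17 ± 0.16 and -0.155 ± 0.149). Id1 read 15.31 and 15.34 in the Noto GFP/GFP samples, against 15.65 and 15.33 in the Noto GFP/+ samples (mm8 chr2:152428741-152428800, plus strand). It was lower in the homozygote on array 1 and level on array 2, with ratios of -0.34 and 0.00 and a mean of -0.17 ± 0.24. The other Id1 probe shares 50 of its bases and is no separate measure; it read -0.21 and -0.11, a mean of -0.16 ± 0.07.

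Id2 read 15.01 and 15.26 in the Noto GFP/GFP samples, against 15.33 and 15.28 in the Noto GFP/+ samples (brightest probe, mm8 chr12:25683119-25683178, minus strand). The genotypes did not overlap, with most of the difference on array 1. Its ratios were -0.32 and -0.02, a mean of -0.17 ± 0.21. The Id2 probe printed above, a separate stretch of the transcript, read -0.20 and -0.08, a mean of -0.14 ± 0.08 that was larger than its spread. Id3 read 15.03 and 14.96 in the Noto GFP/GFP samples, against 15.28 and 14.83 in the Noto GFP/+ samples. Its ratio changed sign between the arrays, at -0.25 and 0.13, and the mean of -0.06 ± 0.27 is a change of -4.02%.

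Smad6 and Smad7, the inhibitory Smads, had ratios below 0 on both arrays, with overlapping levels, but read 0.27 and 0.24 on array 1 with median centring. Smad6 had levels of 11.67 and 12.13 in the Noto GFP/GFP samples, against 11.85 and 12.21 in the Noto GFP/+ samples. Its ratios of -0.18 and -0.08 gave a mean of -0.13 ± 0.07. Smad7 had levels of 10.29 and 10.61 in the Noto GFP/GFP samples, against 10.37 and 10.94 in the Noto GFP/+ samples (mm8 chr18:75521082-75521141, plus strand). It was the 1 response gene with its larger ratio on array 2, at -0.08 and -0.33, a mean of -0.21 ± 0.18.

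By role, the medians differed by less than each role's own median differed between arrays. The ligands had a median ratio of -0.17 ± 0.14, the transducers of -0.12 ± 0.19 and the response genes of -0.17 ± 0.17 (SD of the medians on the 2 arrays), each on loess-normalised values. The response genes minus the ligands came to 0.026 on array 1 and 0.063 on array 2, and to 0.0053 for the medians of the 2-array means. The response genes minus the transducers came to 0.00077 on array 1, -0.031 on array 2 and -0.048 for the medians of the means. These differences between roles are smaller than the gap between arrays within each role, which was -0.25 on array 1 against -0.02 on array 2 for the response genes. Within an array, a shift common to the roles drops out of such a difference. The SD over arrays of response genes minus ligands, above 0 on both arrays, was 0.026. For response genes minus transducers, which changed sign between arrays, it was 0.022. Gene by gene with loess, the mean was larger than its SD over arrays for Bmp4, Bmp7, Smad5, Smad6 and Smad7 and smaller for Bmp2, Smad1, Id1, Id2 and Id3. With the software's log ratios it was smaller for Smad5 (0.09 ± 0.19) and Smad7 (-0.18 ± 0.20). With those ratios it was larger for Smad1 (-0.35 ± 0.34), Id1 (-0.17 ± 0.13) and Id2 (-0.19 ± 0.09).

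Normalisation set the sign of several of these small ratios. With median centring the median of all measured genes was 0.12, and relative to it the ligands read -0.13, the transducers -0.02 and the response genes -0.07, with Smad5 at 0.18 and Id3 at 0.05. Counted against the median of each array, 5 of the 10 genes lay below on both arrays with loess (30.0% of all genes), 7 with the software's log ratios or the value table (30.8%), 7 with the mean of probes (31.4%) and 3 with median centring (23.4%). The 3 were Bmp7, Smad1 and Smad7, and the 5 with loess were these beside Bmp4 and Smad6. Before that subtraction, Smad5 read 0.96 on array 1 and -0.35 on array 2 with median centring.

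**Figure D4:**
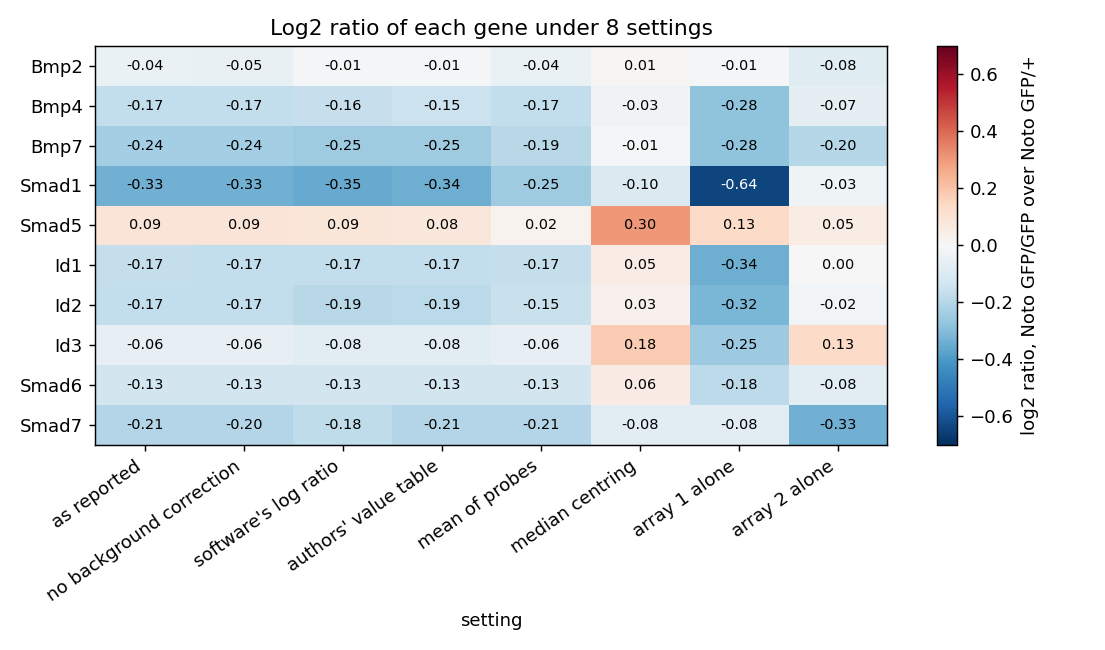
Mean log2 ratio (colour and printed number, Noto GFP/GFP over Noto GFP/+) of each of the 10 genes (rows) as reported and under the alternatives and single arrays (columns). Smad5 is above 0 in every column, and median centring moves all 10 genes upward, as it does the median of all genes (0.12).

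Of 64 other measured genes of the pathway 1 was lower, Nbl1 (2.35% of all measured genes were), and 0 were higher (0.0591%). Nbl1 encodes a secreted BMP antagonist of the DAN family. It had levels of 12.40 and 12.23 in the Noto GFP/GFP samples, against 13.17 and 13.04 in the Noto GFP/+ samples, a ratio of -0.79 ± 0.03. The homozygous samples lay well below the heterozygous ones on each array, but with median centring array 1 read -0.25 and Nbl1 no longer passed. Crim1, a membrane protein that binds BMPs, read 0.56 ± 0.16, with its other probe at 0.20.

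The 18 measured antagonists and modulators of 21 listed had a median of 0.01, with 6 below 0 on both arrays and 7 above. The 10 measured other ligands of 13 had a median of 0.06, with Gdf2 (0.22 ± 0.08) and Gdf6 (0.20 ± 0.15) farthest from 0. Both were dim, with levels of at most 8.33. The 10 receptors and co-receptors of 11 had a median of 0.07, led by the type II receptor Bmpr2 (0.13 ± 0.28) and the co-receptor Hjv (0.13 ± 0.09). Other Smads (3 of 4) included Smad2 (0.18 ± 0.13) and Smad3 (-0.14 ± 0.11), which carry Nodal and activin signals. The other Smad3 probes read -0.03 and 0.08. The 9 intracellular regulators had a median of 0.08, with the kinase Map3k7 at 0.26 ± 0.12 and the ubiquitin ligase Smurf1 at 0.24 ± 0.08 (its other probe at 0.04). None of the 4 lists other than the antagonists had a called gene (0 higher and 0 lower in each).

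The 14 other genes known to respond to BMP lay mostly below 0, each by little. Of them 13 had ratios below 0 on both arrays, against 34.0% of all measured genes, 1 was above on both and 0 were called. Their median was -0.21 on array 1 and -0.22 on array 2. With median centring 3 were below 0 on both arrays, against 19.9% of all measured genes. Relative to the median of all genes the list read -0.22 with median centring as well, with 9 of 14 below the median of both arrays (23.4% of all genes). Gata3, a transcription factor of the trophoblast and surface ectoderm, had levels of 11.31 and 11.26 in the Noto GFP/GFP samples, against 11.56 and 11.72 in the Noto GFP/+ samples, a ratio of -0.35 ± 0.15. Hand1, a factor of extraembryonic and cardiac mesoderm, had levels of 12.81 and 12.63 in the Noto GFP/GFP samples, against 13.04 and 13.07 in the Noto GFP/+ samples, a ratio of -0.33 ± 0.15. For neither gene did the levels overlap between genotypes, which with the homozygote lower held for 16.6% of all measured genes. Both were named because they lay farthest from 0 in the list. The 1 gene above 0 was Tbx20 (0.32 ± 0.09), a T-box factor of the heart, and its other probe read -0.09. Msx1 (-0.24 ± 0.02) and Tbx3 (-0.32 ± 0.03), chosen after their values were seen, differed by little between arrays.

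**Figure D5:**
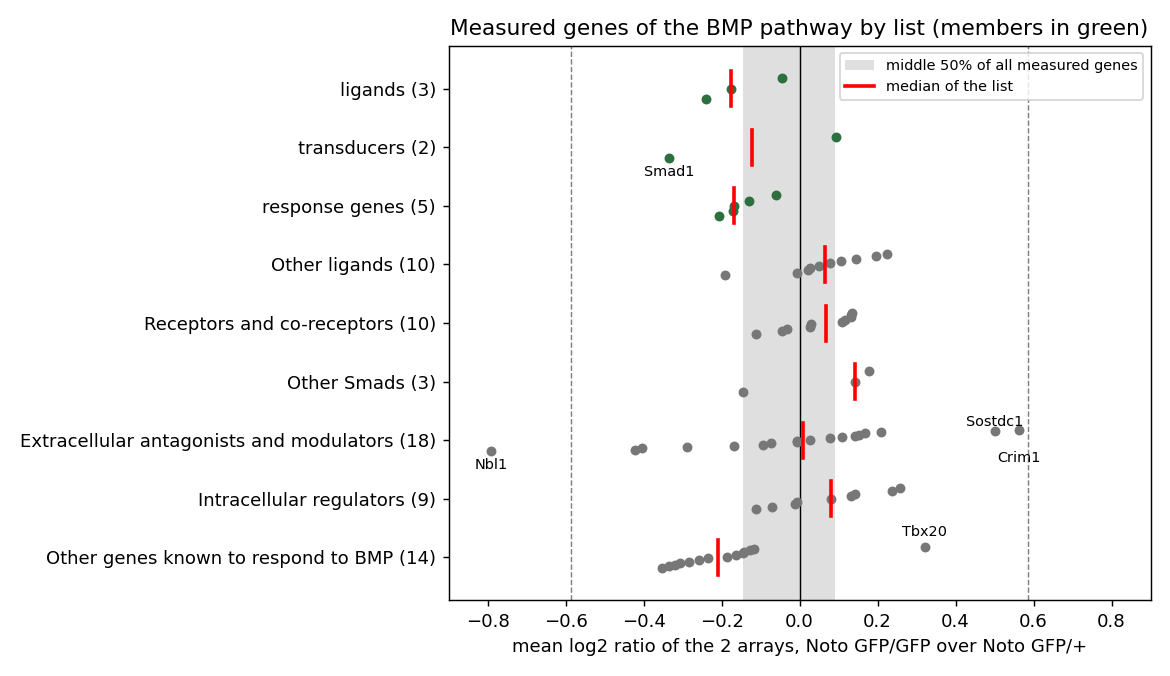
Mean log2 ratio of the 2 arrays (horizontal axis, Noto GFP/GFP over Noto GFP/+) of each measured gene by list, with the 10 genes in green, list medians in red, the interquartile range of all measured genes in grey and 1.5-fold as dashed lines. Only Nbl1 (-0.79) lies beyond a dashed line on the mean. With median centring it does not pass the rule, with array 1 at -0.25 and array 2 at -0.91.

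Many of these targets and ligands are also made in tissues other than the node, and how much of each the pieces held is not known. In pooled tissue fewer cells of a type and less RNA per cell cannot be told apart. Extraembryonic mesoderm, amnion and allantois markers (7 of 8 measured, 0 called, 4 below 0 on both arrays) summed to 19984 and 17896 in the Noto GFP/GFP samples, against 20904 and 21122 in the Noto GFP/+ samples (linear intensity). Hand1, itself a target counted above, is the brightest of them, and without it the sums were 12785 and 11563 in the Noto GFP/GFP samples, against 12495 and 12511 in the Noto GFP/+ samples. The sum with Hand1 was lower in the homozygote on each array, and the sum without it was not. Ahnak (-0.01) makes up the greater part of the sum without Hand1. Tal1 (-0.47), Vcam1 (-0.22) and Postn (-0.14) were below 0 on both arrays like Hand1. Pitx1 (0.22) was above 0 on both, while Foxf1 (0.06) and Ahnak changed sign.

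Trophoblast markers (8 of 8 measured, 0 called, median -0.01) had 3 members below 0 on both arrays, Elf5 (-0.26), Tfap2c (-0.31) and Plet1 (-0.53). The other Plet1 probe read -0.20. Above 0 on both arrays were 2 members, Prl3d1 (0.36) and Ascl2 (0.07). Cdx2, also expressed in the posterior embryo, carries most of the summed level of the 8 markers. That sum was 95021 and 86712 in the Noto GFP/GFP samples, against 108138 and 80991 in the Noto GFP/+ samples. Without Cdx2 the sums were 13189 and 12092 in the Noto GFP/GFP samples, against 15023 and 14700 in the Noto GFP/+ samples, lower in the homozygote on each array.

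Blood markers (6 of 7 measured) had 2 lower genes, the adult globins Hba-a1 (-1.05) and Hbb-bt (-1.36), and summed to 5863 and 5082 in the Noto GFP/GFP samples against 12803 and 10080 in the Noto GFP/+ samples. Without Hbb-bt, the brightest, the sums were 2729 and 2567 in the Noto GFP/GFP samples, against 4495 and 3830 in the Noto GFP/+ samples. The other measured blood markers, Gata1 (0.21), Klf1 (-0.07), Hbb-bh1 (-0.20) and Hbb-y (-0.44), were not called. Decidua markers (4 of 4 measured) had 1 higher gene, the prolactin-family Prl8a2 (1.11), and summed to 2565 and 2387 in the Noto GFP/GFP samples, against 1989 and 1849 in the Noto GFP/+ samples. Without Prl8a2 the decidua sums were 1506 and 1658 in the Noto GFP/GFP samples, against 1505 and 1506 in the Noto GFP/+ samples, nearly equal on array 1. Primitive streak and paraxial mesoderm markers (8 of 8 measured) had 1 lower gene, the somite factor Meox1 (-0.62). Cardiac mesoderm markers (6 of 6 measured) had 0 called, with a median of -0.0046. Leaving out the brightest gene of a sum was a choice made after seeing the data. The part of these tissues in the BMP values was not tested.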

How the data were processed

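Per the file headers, the authors scanned 2 dye-swapped arrays (homozygote in Cy5 on array 1, in Cy3 on array 2) and read them with Agilent Feature Extraction 9.5.3.1, which gave the deposited foreground, background and processed intensity of each spot, a log10 ratio, and flags (unit other). The authors also deposited a value table of intensity, floored at 15. Both samples of an array share 1 scanner file. Precision is limited by the number of arrays.

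From these, limma 3.58.1 (R 4.3.3) applied normexp (offset 50) and loess with control spots at weight 0; outlier spots (179 and 165) were left out, array 2 was turned, and levels came from Aquantile. Measured probes (27788 of 41174) were those marked by the scanner software as above background on both arrays for either genotype, and a gene took its brightest measured probe. Names came from RefSeq (GRCm38.p6; 33116 probes matched, 8058 kept the file's). The normalisation and the 1.5-fold call were tested on simulated dye-swapped arrays. Named genes are the 10 with every probe, and, per pathway list, called genes and the 2 farthest from 0; markers are named where called or where a result turns on them. The genes and lists were chosen with earlier results of these data known. Alternatives were background correction, source of the ratio, centring, probe choice, dim-probe filters, fold and single arrays. The SD measures spread between arrays of the same pools, which is technical.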

Additional observations from a re-analysis of the deposited data

How the results depend on the processing

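No paired analysis was possible because the values come from no test; each ratio already pairs the genotypes within an array, and the replicate numbers name arrays of 1 pool per genotype. Each array lies on its own slide with both genotypes. The values are limited by having 1 pool per genotype and by disagreement between arrays. Of 70 values of the 10 genes from both arrays under the alternatives, 66 moved by less than the SD over arrays and 4 by more: Bmp7 (-0.01), Smad5 (0.30) and Smad6 (0.06) with median centring and Smad5 (0.024) with the mean of probes. The mean took the opposite sign in 5, all with median centring: Bmp2 (0.0071), Id1 (0.050), Id2 (0.030), Id3 (0.18) and Smad6 (0.055). For each shift given next, the cause was not tested. Median centring gave medians of -0.0060 for the ligands, 0.10 for the transducers and 0.050 for the response genes. It gave a difference of 0.056 between response genes and ligands, and 0 called pathway genes. It put 0 of the 10 and 3 of the 14 other targets below 0 on both arrays (19.9% of all genes). The value table gave a difference of -0.021 between response genes and ligands. Called pathway genes were 2 with the processed log ratios and 2 with the value table, where Sostdc1 was higher (1.01 and 0.92), 3 at the laxer fold limit and 0 at 2-fold. All called genes numbered 814, 746, 1404 and 96 under these 4 settings. Sostdc1 was dim, with levels of 8.02 and 7.73 in the Noto GFP/GFP samples, against 7.33 and 7.42 in the Noto GFP/+ samples. With background correction and loess as reported it read 0.50 ± 0.27 and was not called. Single arrays gave 0 to 1 called among the 10 (Smad1 on array 1 alone), 1 to 4 in the pathway and 769 to 1058 overall. The response genes minus the ligands ran over 0.026 to 0.063 on single arrays, and minus the transducers over -0.031 to 0.00077. When dimmer genes were left out (added after seeing the data), 4 of 7 of the genes and 6 of 6 other targets lay below 0 on both arrays (25.1% of all), and 61 genes were called.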

Other observations

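Secreted BMP antagonists that the node makes went both ways. Nog, the noggin gene, had levels of 8.93 and 9.73 in the Noto GFP/GFP samples, against 9.28 and 10.19 in the Noto GFP/+ samples. Its ratio was below 0 on both arrays, at -0.35 and -0.46, a mean of -0.40 ± 0.07. Chrd, the chordin gene, had levels of 10.46 and 10.88 in the Noto GFP/GFP samples, against 10.36 and 10.82 in the Noto GFP/+ samples, a mean ratio of 0.08 ± 0.03. Neither met the 1.5-fold rule, levels overlapped for both, and both were chosen after their values were seen.

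Among the 14 other target genes, 8 have a promoter in the RefSeq table. Of these, Id4, Gata2, Gata3 and Tbx20 hold GGCGCC, which 13.4% of 27025 genes hold in at least 1 promoter. GTCTG or CAGAC occurs in 4 of the 8, Gata2, Gata3, Tbx20 and Nkx2-5, against 53.2% of all genes. Gata2 (-0.13), Gata3 (-0.35) and Tbx20 (0.32) hold both motifs. Only Tbx20 among them had a mean above 0, and its other probe read -0.09.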
